A study of Mus musculus with 47 samples.

Results

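Transcript levels in 6 T-cell lymphoblastic tumours titled TLX1 transgenic were set against those in 3 tumours titled LMO1 transgenic and 3 titled Nup98HoxD13 transgenic. These 12 are part of 47 mouse tumours measured on Affymetrix arrays. The arrays were chosen by their titles, and both comparison groups carried a high Lmo1 signal. The label names the LMO1 transgene for the first of these groups alone, so the second is called here the tumours labelled Nup98HoxD13. The labels give no strain, age, sex or driving promoter and do not say that each tumour came from a separate mouse, so every p-value below measures the spread between these samples. In bulk tumour RNA, fewer cells of a type and less RNA per cell cannot be told apart.

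TLX1, also called HOX11, is a homeobox transcription factor that normal thymocytes do not use and that is switched on in a class of human T-cell acute lymphoblastic leukaemia with features of early cortical thymocytes. LMO1 is a LIM-only protein with no DNA-binding domain that joins LDB1 to basic helix-loop-helix factors of the TAL1 and LYL1 kind, and these complexes take E proteins away from their targets. NUP98-HOXD13 is a fusion of a nuclear pore protein with a homeobox protein, known from human myeloid leukaemia.

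The label check turned on Lmo1, which lies on chromosome 7. Lmo1 had signals of 3.95, 15.3, 4.58, 5.04, 12.4 and 5.32 in TLX1 tumours 1 to 6, against 1859.8, 522 and 2344 in the LMO1 tumours and 2526, 586 and 2154 in the tumours labelled Nup98HoxD13. All 6 TLX1 values lay under the array medians, which ran from 57.9 to 75.1, and all 6 others lay far above them. The log2 difference was -5.92 ± 0.40 (± SE, adjusted p = 8.82e-06, limma), where a log2 difference of 1 is a 2-fold difference. The comparison groups were taken with their high Lmo1 signal known, so this p-value is no separate support for the difference. Where 1 side lies under the array medians, the size depends on the constant of 15.9 added to each signal: for Lmo1 it was -7.48 with a constant of 1 and -4.21 with the median signal of 72.2. The Tlx1 probe set did not mark the TLX1 tumours, with 7.14 to 41.5 in them and 9.37 to 20.02 in the other 6, and whether the transgene's message carries the sequence it reads is not given in the sources used here. Hoxd13 was likewise dim in every tumour, at 4.28 to 13.3 in the TLX1 tumours and 1.15 to 13.0 in the others, so no signal here marks the Nup98HoxD13 label. Nup98 had 63.7 to 123 in TLX1 tumours and 109 to 241 in the others, a difference of -0.48 ± 0.20 that was not called (adjusted p = 0.107, limma). AI506816, a transcript of unannotated function that reached 1117 among the other 35 tumours of the series, was low in all 12. It had 2.51 to 27.2 in TLX1 tumours and 1.20 to 15.4 in the comparison tumours. Signal of 2 CD3 chains was present in all 12 tumours. Cd3e had 1323 to 3106 in TLX1 tumours and 1502 to 2478 in the others. Cd3g had 1581 to 2038 in TLX1 tumours and 1394 to 2955 in the others. T identity as a whole was less even. The mean log2 value of 10 tested identity genes, relative to the comparison tumours, was -1.52 in TLX1 tumour 2. It was -0.65 to 0.13 in the other TLX1 tumours.

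TLX1 tumours 1 and 4 had the lowest control ratios of their group, with tumour 3 next and close to them for Gapdh. On these arrays the Gapdh and Actb controls are read by probe sets near the 3' end and near the 5' end of the transcript, and their ratio rises where the labelled RNA is short. The Gapdh log2 3'/5' ratio was 0.27, 2.86, 0.49, 0.29, 2.37 and 1.87 in TLX1 tumours 1 to 6, against -0.22, 0.18 and -0.32 in the LMO1 tumours and -0.27, -0.35 and -0.32 in the tumours labelled Nup98HoxD13. Every TLX1 value was above all 6 others, though tumours 1 and 4 exceeded LMO1 tumour 2 only slightly. The mean was 1.36 ± 1.15 in TLX1 tumours and -0.22 ± 0.20 in the others (SD, n = 6 each), a difference of 1.57 (exact two-sided permutation p = 0.00216, the smallest the 924 orders allow). The Actb log2 ratio was 0.77, 2.72, 1.31, 0.45, 2.73 and 2.00 in TLX1 tumours 1 to 6, against 0.29, 0.61 and 0.28 in the LMO1 tumours and 0.24, 0.25 and 0.20 in the tumours labelled Nup98HoxD13. Tumour 4 lay within the range of the comparison tumours, and the difference in means was 1.35 (exact two-sided permutation p = 0.00433). The other 35 tumours of the series had Gapdh ratios of -0.53 to 0.71 and Actb ratios of 0.11 to 1.22, a range that holds both ratios of TLX1 tumours 1 and 4 and neither ratio of tumours 2, 5 and 6. Tumour 3 lay inside it for Gapdh and outside it for Actb. TLX1 tumours also resembled each other less, with pairwise correlations over the tested genes of 0.815 to 0.905, against 0.918 to 0.943 among LMO1 tumours and 0.897 to 0.916 among tumours labelled Nup98HoxD13.

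**Figure D1:**
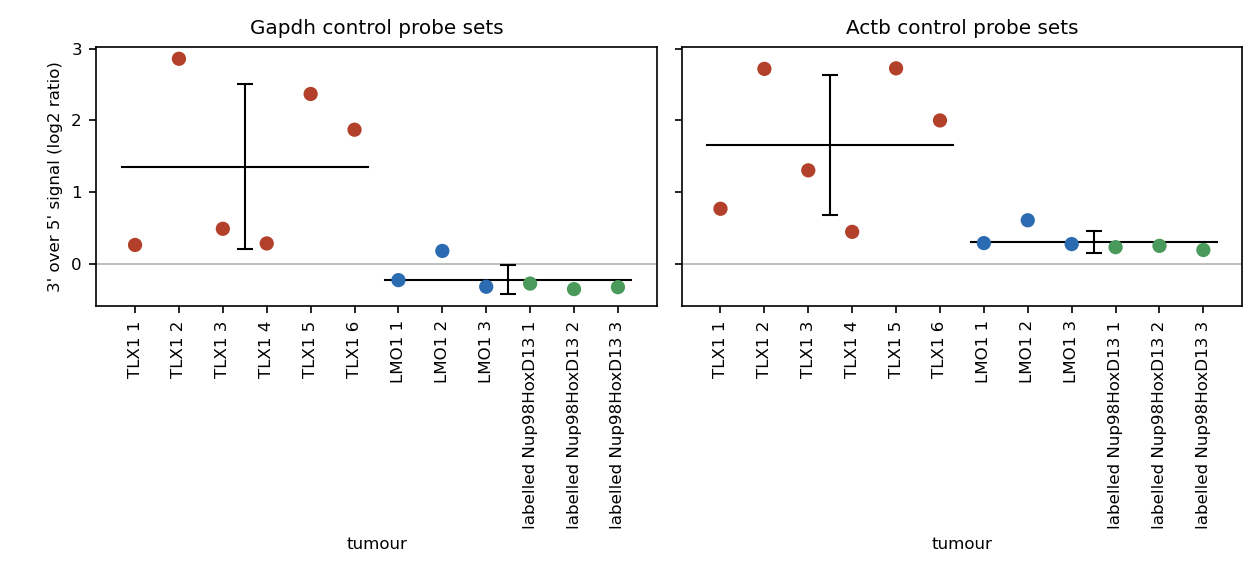
The log2 ratio of 3' over 5' signal (vertical axis) is plotted for the Gapdh (left) and Actb (right) control probe sets in each tumour, with TLX1 in red, LMO1 in blue and labelled Nup98HoxD13 in green. Black lines are the means of the 6 TLX1 tumours and of the 6 comparison tumours with their SD, and TLX1 tumours 1 and 4 lie nearest to the comparison tumours.

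Of 7528 genes tested, 1179 (15.7%) were called at an adjusted p under 0.05 with all 12 arrays, 698 of them higher (9.27%) and 481 lower (6.39%) in TLX1 tumours. With TLX1 tumours 1 and 4 as the only TLX1 samples, 63 genes were called (0.837%), and 49 genes (0.651%) were called in both fits in the same direction. These 49 are said here to hold: 34 were higher (0.452%) and 15 lower (0.199%) in TLX1 tumours. The median SE of a gene was 0.264 with tumours 1 and 4 and 0.209 with all 6. Both counts rested on few samples. The count of 1179 was 727 without TLX1 tumour 2, 619 without LMO1 tumour 1 and 665 without LMO1 tumour 3. The count of 63 was 22 without TLX1 tumour 4, 18 and 14 without LMO1 tumours 1 and 3, and 39, 34 and 17 without tumours 1, 2 and 3 labelled Nup98HoxD13. With the Gapdh ratio as a covariate, 25 of the 1179 calls were kept, and 29 with the Actb ratio, at a median SE of 0.285 and 0.288.

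Among the 49 genes that hold, 19 were also called with the Gapdh ratio and with the Actb ratio as a covariate, 16 higher and 3 lower. The ratios varied mostly within the TLX1 tumours (Gapdh SD 1.15, against 0.20 in the others). The covariate fits thus lean on the TLX1 tumours of low ratio, and are not separate from the choice of tumours 1 and 4. The 16 were Adarb1, Adgrl1, Ankrd17, Cbfa2t3, Dlx1, Emid1, Fmo2, Max, Myl6, Parp3, Pip5k1a, Slc6a6, Spen, Tceal9, Tmppe and Tsc22d1, and the 3 were F2, Lmo1 and Sephs2. Lmo1 was fixed by the choice of groups. No tumour overlapped the other side for 22 of the 34 higher and 9 of the 15 lower genes, beside 325 (4.32%) above and 169 (2.24%) below among all tested genes. Against LMO1 and labelled Nup98HoxD13 tumours taken separately, 21 of the 34 and 9 of the 15 were called both times, beside 165 genes in all (2.19%). The 49 were picked by their calls on these same arrays. High shares without overlap or called both times therefore follow in part from that choice and are no separate support. Of the 49, 17 have other probe sets, and for Ankrd17, Mtf1, Pip5k1a and Purb at least 1 of these had the opposite sign.

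**Figure D2:**
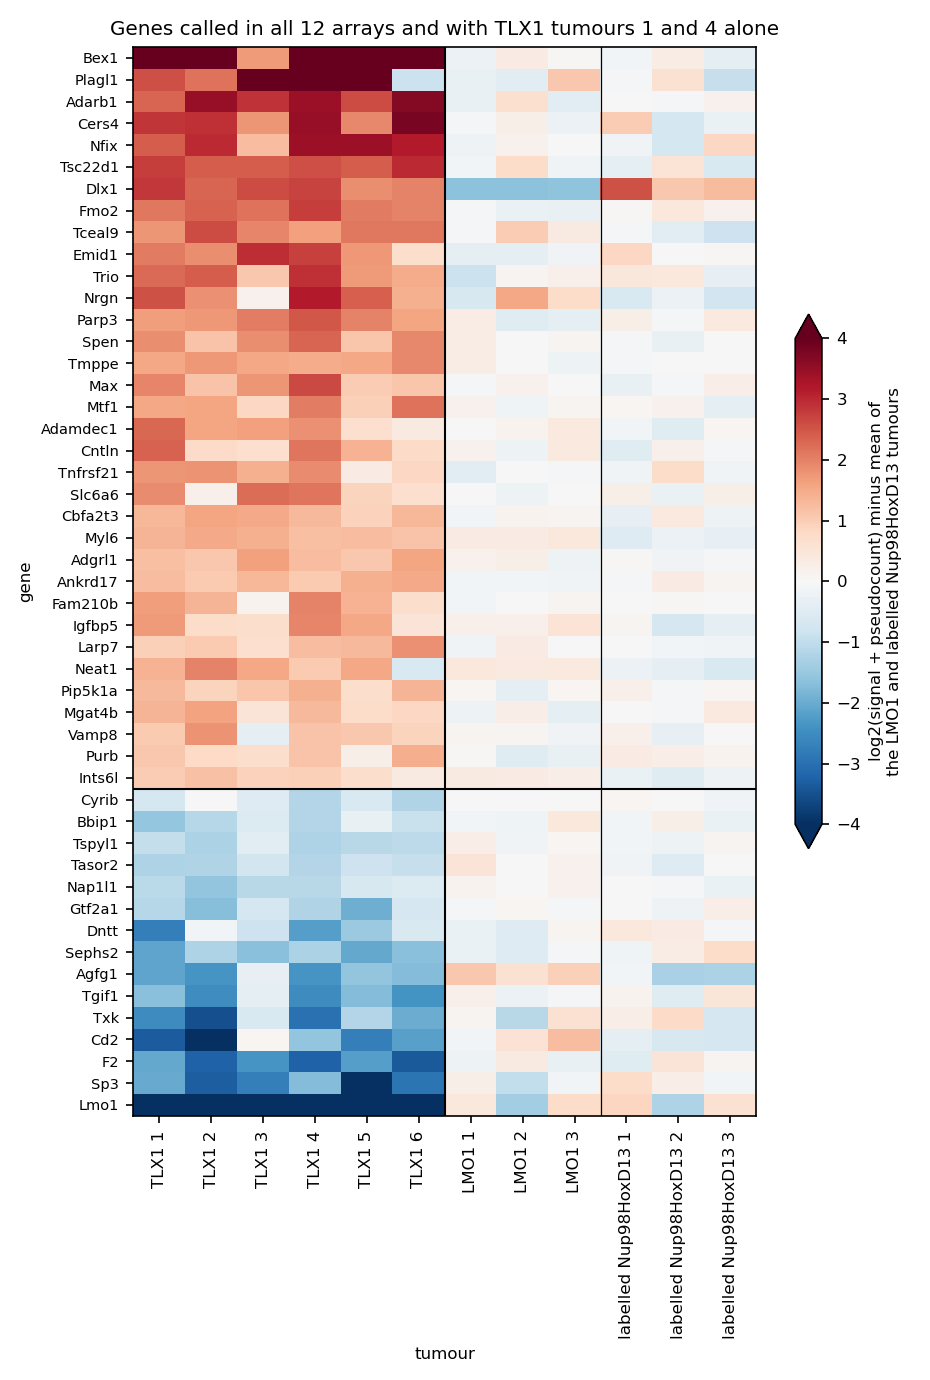
Each row is 1 of the 49 genes that hold, and each column a tumour, with TLX1 at the left. Colour gives log2(signal + 15.9) minus the mean of the 6 comparison tumours, cut at 4 either way; the 34 higher genes stand above the line and the 15 lower genes below it, and Plagl1 in TLX1 tumour 6 and Dlx1 in the LMO1 tumours stand out from their groups.

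The largest difference among the 34 was in Bex1, a small X-linked gene of the brain-expressed family. Bex1 had signals of 2913, 4495, 82.1, 1399, 2989 and 2575 in TLX1 tumours 1 to 6, against 9.99, 22.1 and 15.8 in LMO1 tumours and 12.2, 21.7 and 7.94 in tumours labelled Nup98HoxD13. All 6 comparison tumours lay under the array medians, and TLX1 tumour 3 was far below the other 5 TLX1 tumours while still above every comparison tumour. The log2 difference was 5.68 ± 0.74 (adjusted p = 0.00115, limma) and 6.07 with tumours 1 and 4 alone. Tceal9, an X-linked gene of the related elongation factor A-like family, had 1439, 2564, 1614, 1308, 1815 and 1808 in TLX1 tumours, against 397, 836 and 528 in LMO1 tumours and 393, 299.9 and 223 in tumours labelled Nup98HoxD13. The groups did not overlap, and unlike Bex1 it was well above the array medians on both sides (2.03 ± 0.21, adjusted p = 0.000322, limma). Nrgn, neurogranin, a calmodulin-binding protein best known from neurons, had 249.7, 146, 35.9, 399, 223 and 105 in TLX1 tumours and 11.3 to 118 in the others, with tumour 3 inside the comparison range (1.92 ± 0.48, adjusted p = 0.0198, limma).

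The higher genes that hold also included transcription factors and cofactors. Nfix, a nuclear factor I protein that binds DNA as a dimer, had 306, 462, 127, 637, 634 and 532 in TLX1 tumours, against 36.9, 52.6 and 45.9 in LMO1 tumours and 39.1, 21.6 and 91.97 in tumours labelled Nup98HoxD13 (2.78 ± 0.37, adjusted p = 0.00138, limma). Its 6 TLX1 values lay above all others, with tumour 3 again the lowest. Tsc22d1, a leucine zipper protein first found as a gene induced by TGF-beta, was even across the TLX1 tumours at 1328, 1027, 1035, 1155, 1044 and 1522, against 167, 308 and 161 in LMO1 tumours and 133, 267 and 111 in tumours labelled Nup98HoxD13. The lowest TLX1 value was more than 3 times the highest of the others, and the difference was 2.602 ± 0.22 (adjusted p = 8.49e-05, limma). Spen, a large corepressor that binds the Notch effector RBPJ, had 235, 139, 239.6, 336, 133 and 247 in TLX1 tumours and 41.2 to 69.3 in the others (1.70 ± 0.22, adjusted p = 0.00121, limma), with no overlap. Cbfa2t3, the ETO2 corepressor that joins the TAL1 and LMO complexes of blood progenitors, had 399 to 634 in TLX1 tumours and 160.1 to 272 in the others (1.32 ± 0.16). Max, the dimer partner of MYC, had 101 to 341 in TLX1 tumours and 30.7 to 54.4 in the others (1.60 ± 0.28). Mtf1, a metal-responsive zinc finger factor, had 102 to 285 in TLX1 tumours and 36.01 to 59.2 in the others (1.52 ± 0.25).

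Plagl1 and Dlx1 were called with marked differences inside a group. Plagl1, an imprinted zinc finger gene linked to cell cycle arrest, had 280.2, 206, 3786, 1844, 1977 and 11.6 in TLX1 tumours, against 24.03, 21.1 and 88.1 in LMO1 tumours and 32.4, 59.2 and 10.35 in tumours labelled Nup98HoxD13. Its signal spanned the whole range within the TLX1 group, with tumour 6 as low as the comparison tumours, and the call (3.46 ± 0.99, adjusted p = 0.0336, limma) was lost in 8 of the 12 fits that left out 1 tumour. Dlx1, a homeobox gene best known from forebrain interneurons, had 355, 245, 304, 322, 174 and 190.4 in TLX1 tumours, against 0.736, 1.02 and 1.27 in LMO1 tumours and 288, 94.4 and 109 in tumours labelled Nup98HoxD13. Its difference was 4.01 ± 0.33 against LMO1 tumours (adjusted p = 6.35e-05, limma) and 0.76 ± 0.33 against tumours labelled Nup98HoxD13 (adjusted p = 0.138, limma). Dlx1 was thus near 1 signal unit in LMO1 tumours alone, and was not called against the other group.

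Genes of RNA and DNA metabolism were also among those that hold. Adarb1, which encodes the adenosine deaminase ADAR2 that edits double-stranded RNA, had 111, 269, 172, 253, 137 and 309.7 in TLX1 tumours, against 4.57, 23.8 and 2.75 in LMO1 tumours and 9.06, 8.51 and 12.9 in tumours labelled Nup98HoxD13 (3.07 ± 0.30, adjusted p = 0.000229, limma). All 6 TLX1 values were above the array medians and all 6 others below them; a second, dimmer Adarb1 probe set had 16.8 to 40.2 in TLX1 tumours and 6.31 to 24.3 in the others. Among 14 tested genes of RNA editing and RNA binding, Adarb1 alone was called higher (7.14%, beside 9.27% of all tested genes) and none was lower. Parp3, a poly(ADP-ribose) polymerase that acts at DNA breaks, had 222, 231, 289.6, 397, 278 and 204 in TLX1 tumours and 37.4 to 80.5 in the others (1.92 ± 0.21, adjusted p = 0.000332, limma). Larp7, which stabilises the 7SK RNA, had 555 to 1257 in TLX1 tumours and 306 to 439 in the others (1.17 ± 0.18). Ankrd17, an ankyrin repeat protein, had 843 to 1178 in TLX1 tumours and 362 to 502 in the others (1.27 ± 0.13).

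The remaining higher genes have varied roles. Cers4, a ceramide synthase, had 212, 226, 91.2, 335, 104 and 422 in TLX1 tumours and 3.46 to 48.3 in the others (2.79 ± 0.39, adjusted p = 0.00186, limma), and both other Cers4 probe sets were called higher too. Fmo2, a flavin-containing monooxygenase, had 109.8, 135, 115, 182, 107 and 99.4 in TLX1 tumours, against 11.8, 8.46 and 7.84 in LMO1 tumours and 14.5, 22.8 and 16.6 in tumours labelled Nup98HoxD13 (2.25 ± 0.22, adjusted p = 0.000229, limma). The 6 TLX1 values of Fmo2 lay above the array medians and those of the others below them. Emid1, an extracellular matrix protein with an EMI domain, had 307 to 1518 in TLX1 tumours and 134 to 336 in the others (2.02 ± 0.32). Trio, a guanine nucleotide exchange factor, had 195 to 747 in TLX1 tumours and 39.8 to 122 in the others (1.98 ± 0.31). Tmppe, a transmembrane protein with a phosphoesterase domain, had 181, 208, 179, 171, 179.9 and 239 in TLX1 tumours and 42.5 to 66.9 in the others (1.62 ± 0.16, adjusted p = 0.000229, limma). Slc6a6, the taurine transporter, had 334, 93.7, 429, 403, 160.2 and 134 in TLX1 tumours and 63.7 to 95.9 in the others, with tumour 2 within the comparison range (1.33 ± 0.34). Adgrl1, a latrophilin receptor, Pip5k1a, a phosphatidylinositol kinase, Mgat4b, a glycosyltransferase, and Myl6, a myosin light chain, did not overlap between the sides, with differences of 1.303, 1.12, 1.06 and 1.31. The other 9 were Adamdec1, Cntln, Fam210b, Igfbp5, Ints6l, Neat1, Purb, Tnfrsf21 and Vamp8 with differences of 0.85 to 1.40. The calls of Neat1 and Vamp8 were each lost in 11 of the 12 fits that left out 1 tumour, and Vamp8 differed by 0.40 with the Gapdh ratio as a covariate (adjusted p = 0.64, limma). Of all 49 genes that hold, 42 were called in each of those 12 fits. The 49 were picked by their calls on these same arrays, so this share follows in part from that choice and is no separate support. Those 12 fits repeat the comparison of all arrays. They do not repeat the smaller fit that also defines the 49, whose 63 calls fell to 14 without LMO1 tumour 3.

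**Figure D3:**
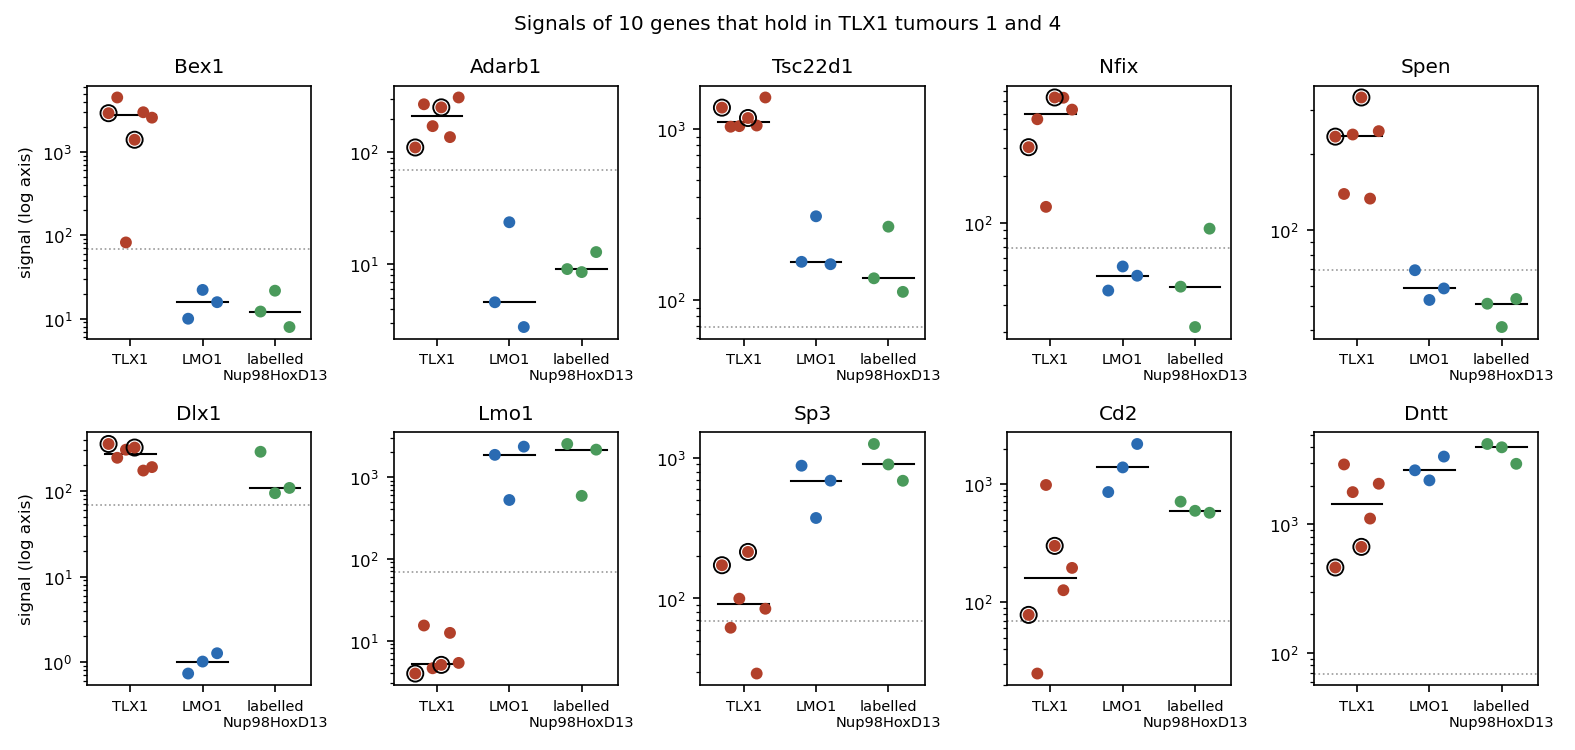
Signals on a log axis are shown for 10 genes that hold, with each point a tumour (red TLX1, blue LMO1, green labelled Nup98HoxD13), rings around TLX1 tumours 1 and 4, a bar at each group's median and a dotted line at the mean array median of 69.2. Adarb1, Tsc22d1 and Spen separate the groups in every tumour, Dlx1 is low in LMO1 tumours only, and TLX1 tumour 3 reaches the comparison range for Cd2.

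Promoters of 4 of these genes are printed as the 250 bases before the RefSeq start in GRCm38.p6. Bex1 and Tceal9 were chosen because they lie near each other on the X chromosome and were both higher in every TLX1 tumour. Nfix and Fmo2 were chosen because they are the 2 of 29 higher genes with a listed promoter that contain TAATTA. This is a core that many homeodomain proteins bind, and CAGATG an E-box of the kind bound by E proteins with their partners. Each was searched on both strands, as were AGATAA, for GATA factors, and CACGTG, the E-box of MYC and MAX. The capitals mark any of these motifs. The windows are chrX:136215514-136215763 (minus strand), chrX:136244830-136245079 (plus), chr8:84780083-84780332 (minus) and chr1:162898759-162899008 (minus), and Nfix and Fmo2 have more than 1 listed start, of which 1 is shown.
Bex1: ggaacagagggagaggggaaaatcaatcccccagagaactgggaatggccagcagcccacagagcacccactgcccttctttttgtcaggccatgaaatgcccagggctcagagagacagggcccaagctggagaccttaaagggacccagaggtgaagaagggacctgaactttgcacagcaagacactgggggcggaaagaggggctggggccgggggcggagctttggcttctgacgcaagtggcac
Tceal9: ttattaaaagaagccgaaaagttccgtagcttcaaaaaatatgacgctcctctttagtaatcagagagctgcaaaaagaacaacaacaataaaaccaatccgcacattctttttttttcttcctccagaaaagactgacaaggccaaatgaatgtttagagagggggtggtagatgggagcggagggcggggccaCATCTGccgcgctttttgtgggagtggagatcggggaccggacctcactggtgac
Nfix: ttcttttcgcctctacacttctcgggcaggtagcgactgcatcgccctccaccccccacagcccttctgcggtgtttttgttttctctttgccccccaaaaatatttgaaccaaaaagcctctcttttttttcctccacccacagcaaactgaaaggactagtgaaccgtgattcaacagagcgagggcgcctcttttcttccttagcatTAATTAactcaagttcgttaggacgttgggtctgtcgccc
Fmo2: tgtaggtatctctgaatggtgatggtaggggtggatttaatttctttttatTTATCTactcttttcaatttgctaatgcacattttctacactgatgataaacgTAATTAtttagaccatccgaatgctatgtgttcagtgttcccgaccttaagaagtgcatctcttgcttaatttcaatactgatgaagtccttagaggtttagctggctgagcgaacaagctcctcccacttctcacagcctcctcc
TAATTA was in 6.897% of the 29 higher promoters, 2.092% of the promoters of tested genes and 4.903% of all 27025 listed promoters. CAGATG, or CATCTG on the other strand as in Tceal9, was in 8 of the 29 (27.59%), against 9.309% and 14.48%, and in 0 of the 13 lower genes with a listed promoter. The Lmo1 promoter, among the lower genes, also holds TAATTA. These letters describe the windows and say nothing of binding.

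Genes that were lower in TLX1 tumours and hold included 3 that act in T cells. Cd2, an adhesion molecule of T cells, had 78.2, 24.9, 983, 300.1, 126 and 195 in TLX1 tumours, against 857, 1385 and 2186 in LMO1 tumours and 711, 594 and 572 in tumours labelled Nup98HoxD13. Tumour 3 lay among the comparison tumours and the other 5 TLX1 tumours below them (-2.37 ± 0.59, adjusted p = 0.0196, limma). Txk, a Tec-family kinase of T cells, had 25.5, 4.99, 142, 14.2, 90.7 and 44.8 in TLX1 tumours and 94.3 to 391 in the others (-2.13 ± 0.49, adjusted p = 0.0146, limma), and tumour 3 again overlapped. Dntt, the terminal transferase that adds bases at V(D)J joints, had 463, 2928, 1784, 669, 1111 and 2073 in TLX1 tumours, against 2636, 2201 and 3371 in LMO1 tumours and 4224, 3979.7 and 2961 in tumours labelled Nup98HoxD13. Tumours 1 and 4 were the 2 lowest, tumour 2 lay inside the comparison range, and the difference was -1.32 ± 0.38 in all 6 (adjusted p = 0.0338, limma) and -2.47 in tumours 1 and 4 (adjusted p = 0.00469, limma). The Dntt call with all 6 was lost in 6 of the 12 fits that left out 1 tumour, with the probe set of largest interquartile range and with all 47 arrays in the fit.

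The other lower genes that hold have varied roles. Sp3, a zinc finger factor that binds GC boxes, had 173, 61.9, 99.7, 214, 29.2 and 84.5 in TLX1 tumours, against 881, 374 and 690.0 in LMO1 tumours and 1258, 899.7 and 689 in tumours labelled Nup98HoxD13. The groups did not overlap, and tumours 1 and 4 were the 2 highest TLX1 tumours, so the difference of -2.80 ± 0.37 (adjusted p = 0.00117, limma) was -1.88 there. Tgif1, a homeobox corepressor of TGF-beta and retinoid signalling, had 41.03, 16.7, 121, 15.99, 38.4 and 18.6 in TLX1 tumours and 113 to 239 in the others (-1.87 ± 0.35, adjusted p = 0.00555, limma), with tumour 3 just inside the comparison range. Gtf2a1, a subunit of the general factor TFIIA, Nap1l1, a histone chaperone, Tspyl1, a member of the same protein family as Nap1l1, and Tasor2, related to a subunit of the HUSH silencing complex, did not overlap and differed by -1.23, -1.01, -1.005 and -1.01. F2, the gene of prothrombin, had 46.99, 11.8, 35.1, 11.7, 40.6 and 9.29 in TLX1 tumours, against 208, 318 and 197 in LMO1 tumours and 168, 356 and 263 in tumours labelled Nup98HoxD13 (-2.74 ± 0.30, adjusted p = 0.000335, limma), which put every TLX1 tumour under the array medians and every other tumour above them. Sephs2, which makes selenophosphate for selenoproteins, had 170.0, 330.1, 241, 321, 179.8 and 236 in TLX1 tumours and 555 to 1321 in the others (-1.67 ± 0.20, adjusted p = 0.000859, limma). Agfg1, a protein that shuttles RNA, was called against LMO1 tumours (-2.63 ± 0.40, adjusted p = 0.00878, limma) and not against tumours labelled Nup98HoxD13 (-0.86 ± 0.40, adjusted p = 0.172, limma). Bbip1, a subunit of the BBSome, and Cyrib, a regulator of RAC1, had the smallest differences of the 15, -0.93 and -0.70.

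Some calls over all 6 TLX1 tumours were small in tumours 1 and 4. Of the 481 lower genes, 55 had under 50% of their difference there, as had 29 of the 698 higher genes. Pknox1, a TALE homeobox cofactor of HOX proteins, had 219, 34.3, 95.1, 173, 27.9 and 33.8 in TLX1 tumours and 154 to 582 in the others, a difference of -2.01 ± 0.43 in all 6 and -0.78 in tumours 1 and 4 (adjusted p = 0.228, limma). Tumours 2, 3, 5 and 6 were the 4 low ones. Their control ratios were above those of tumours 1 and 4, though for Gapdh tumour 3 was close to these 2 (0.49 against 0.27 and 0.29). Chd1, a chromatin remodeller, was likewise lowest in tumours 2, 5 and 6, with 186, 35.7, 119, 130.1, 40.8 and 61.4 in TLX1 tumours and 119 to 348 in the others (-1.55 in all 6, -0.74 in tumours 1 and 4). Among higher genes, Ptger3, a prostaglandin E2 receptor, had 29.7, 115, 26.6, 8.90, 102 and 185 in TLX1 tumours and 3.08 to 12.2 in the others (1.62 in all 6 and 0.50 in tumours 1 and 4). Rtkn, Tmed3, a secretory pathway protein, and Serpinb6a, a serine protease inhibitor, had differences of 0.62, 0.59 and 0.46 in tumours 1 and 4 and of 1.36, 1.27 and 1.03 in all 6. With the Gapdh ratio as a covariate the differences were -0.61 for Pknox1, -0.42 for Chd1, 0.27 for Ptger3, 0.51 for Rtkn, 0.18 for Tmed3 and 0.44 for Serpinb6a, and none was called. The calls of Ptger3 and Rtkn were also lost in 9 and 10 of the 12 fits that left out 1 tumour.

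Genes of the thymocyte stages were mostly lower or not called in TLX1 tumours. The double positive stage list, genes of CD4 and CD8 double positive thymocytes, had 5 of 13 tested members lower (38.5%) and 0 higher, with a median log2 difference of -0.91. Over all tested genes 6.39% were lower, 9.27% were higher and the median was 0.06. Rag1, which with Rag2 cuts DNA in V(D)J recombination, had 161, 87.1, 1219, 1187, 1183 and 205 in TLX1 tumours, against 3625, 1585 and 3446 in LMO1 tumours and 3337, 4887 and 2471 in tumours labelled Nup98HoxD13. All 6 TLX1 tumours were lower than all others, tumours 1, 2 and 6 most of all (-2.80 ± 0.62, adjusted p = 0.0123, limma), and the call was lost in tumours 1 and 4 alone (-2.73, adjusted p = 0.0779, limma). Rag2 had 16.9, 16.8, 139.9, 29.9, 40.97 and 21.7 in TLX1 tumours and 45.1 to 613 in the others (-2.49 ± 0.51, adjusted p = 0.00836, limma). Cxcr4, a chemokine receptor, Cd8b1, the CD8 beta chain, and Ets2, a transcription factor, were the other lower members, with differences of -0.91, -2.05 and -1.18. Their calls were lost in 4, 7 and 7 of the 12 fits that left out 1 tumour. None of the 5 lower members held in tumours 1 and 4, where the list's median was -0.88. None was called with the Gapdh or the Actb ratio as a covariate. Cd8a, the CD8 alpha chain, had 127, 112, 1004, 1365, 1236 and 1302 in TLX1 tumours and 963 to 2438 in the others and was not called (-1.43 ± 0.62, adjusted p = 0.124, limma), nor was Cd4 (-0.15 ± 0.26, adjusted p = 0.733, limma). Both results depended on the processing. Of 30 settings tried, 2 called Cd8a lower and 1 called Cd4 lower. The Cd4 difference went as low as -1.70, and its lowest adjusted p was 0.00697 (limma).

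The beta selection list, genes of double negative thymocytes, had 3 of 14 members lower (Rag1, Rag2 and Dntt) and 1 higher, with a median of -1.09. These are 21.4% and 7.14%, beside 6.39% and 9.27% of all tested genes. Ptcra, the pre-T-cell receptor alpha chain, ranged widely in TLX1 tumours at 55.8, 12.1, 398, 1232, 643 and 22.02, against 413 to 1307 in the others, and was not called (-2.24 ± 0.86, adjusted p = 0.0928, limma). Rora, a nuclear receptor, was the higher member, with 52.6 to 219 in TLX1 tumours and 25.8 to 63.4 in the others (1.41 ± 0.34). The Rora call was lost in tumours 1 and 4 alone and with either control ratio as a covariate. Tumours 1, 2 and 6 were lowest for both Rag1 and Ptcra, and tumours 3, 4 and 5 highest. With the Gapdh ratio as a covariate the differences were -1.88 for Rag1 (adjusted p = 0.32, limma) and -0.78 for Ptcra (adjusted p = 0.782, limma).

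T lineage regulators had 7 of 15 tested members lower (46.7%, beside 6.39% of all tested genes) and 2 higher (13.3%, beside 9.27%), with a median of -0.47. Ets1, a transcription factor of T and NK cell development, had 1864, 1076, 2048, 1763, 1555 and 1280.1 in TLX1 tumours, against 4053, 3546 and 4083 in LMO1 tumours and 2087, 3481 and 2210.0 in tumours labelled Nup98HoxD13 (-0.998 ± 0.18, adjusted p = 0.00475, limma). No tumour overlapped, and all 3 other Ets1 probe sets were called lower as well. Ikzf1, the Ikaros gene, had 206, 27.02, 89.9, 73.6, 32.7 and 41.6 in TLX1 tumours and 93.6 to 498 in the others (-2.11 ± 0.43, adjusted p = 0.00838, limma). Runx1, a core-binding factor of blood development, had 103, 79.6, 135, 218, 109 and 117 in TLX1 tumours and 171 to 901 in the others (-1.304 ± 0.29). Lef1, an effector of Wnt signalling, had 116, 24.7, 476, 466, 101 and 63.8 in TLX1 tumours and 316 to 1553 in the others (-2.71 ± 0.61). In each of these 3, at least 1 comparison tumour lay within the range of the TLX1 tumours, and 1 of the other 4 Runx1 probe sets had the opposite sign. Tox, Ets2 and Sox4 were the other lower members (-1.49, -1.18 and -0.47), and 3 of the other 5 Sox4 probe sets had the opposite sign. The 2 higher members were Bcl11b and Gata3. Bcl11b, a zinc finger gene needed for T-cell commitment, had 1619, 2694, 3357, 3859, 2395 and 2254 in TLX1 tumours, against 1406, 1135 and 1722 in LMO1 tumours and 1294, 1677 and 976 in tumours labelled Nup98HoxD13 (0.94 ± 0.21, adjusted p = 0.0128, limma). Gata3, a master regulator of T cells, had 261 to 1052 in TLX1 tumours and 110.3 to 322 in the others (1.33 ± 0.37). None of these 9 held in tumours 1 and 4, where their list's median was -0.36, and none was called with the Gapdh ratio as a covariate. The difference was then -0.57 for Ets1, -0.94 for Ikzf1, -1.13 for Lef1, -0.58 for Tox and -0.90 for Runx1, and 1.06 for Bcl11b and 1.56 for Gata3. The calls of Sox4, Gata3, Ets2 and Tox were lost in 10, 8, 7 and 5 of the 12 fits that left out 1 tumour.

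**Figure D4:**
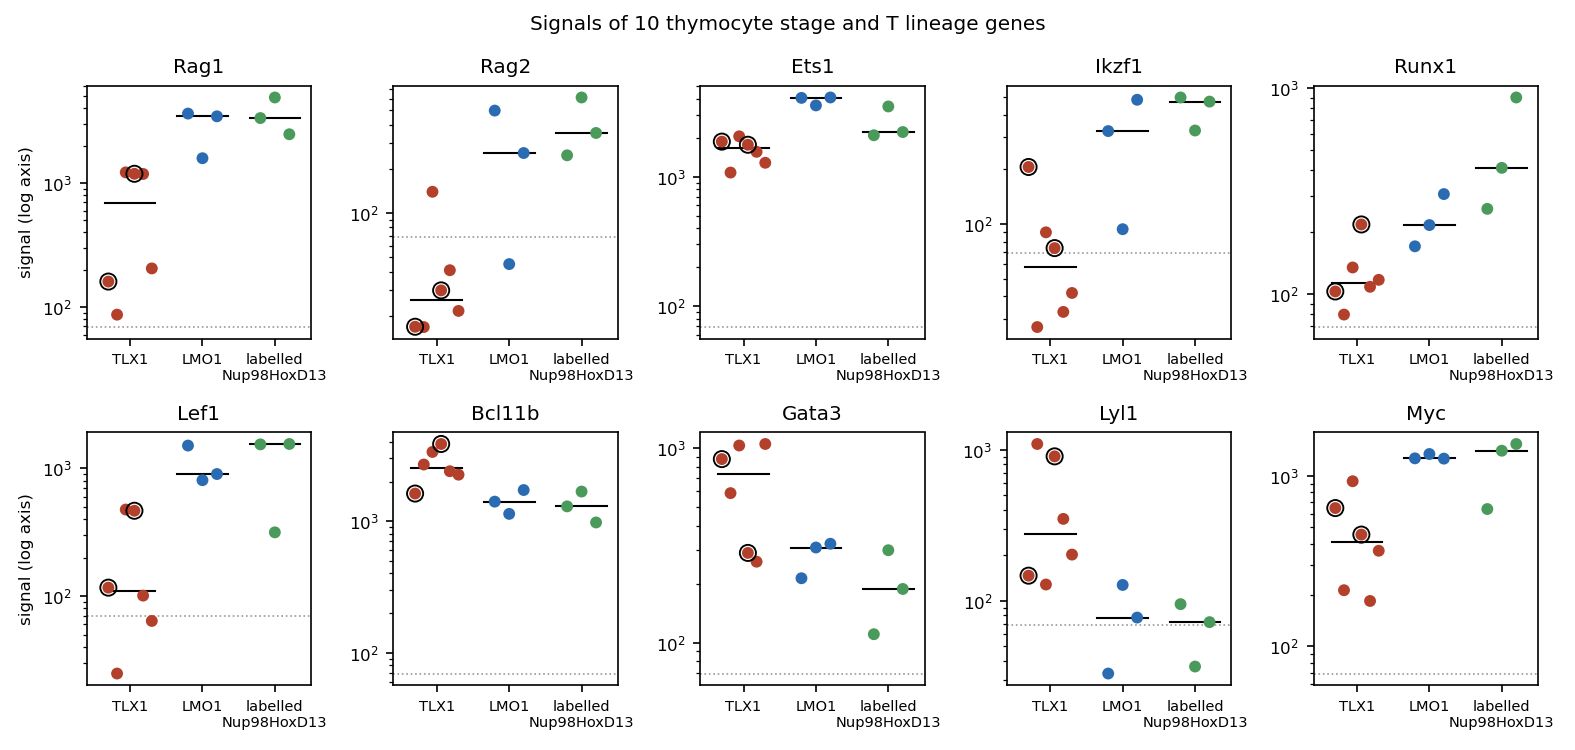
Signals on a log axis are shown for 10 stage and lineage genes, with points, rings, bars and dotted line as for the 10 genes that hold. Rag1 and Ets1 are lower in every TLX1 tumour than in every other tumour, Lyl1 is higher in every TLX1 tumour, and Rag1 spans 87.1 to 1219 within the TLX1 tumours.

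Partners of Lmo1 did not move together. Of 15 tested members of the early progenitor and LMO complex list, 3 were lower, beside 6.39% of all tested genes. Lmo1 and Id1 were among them, and Lmo1 was fixed by the choice of groups. Only 1 member was higher, beside 9.27% of all tested genes. That one was Lyl1, a helix-loop-helix partner of LMO proteins, with 146, 1090.4, 128, 903, 348 and 202 in TLX1 tumours, against 32.9, 127 and 77.3 in LMO1 tumours and 94.8, 36.6 and 72.1 in tumours labelled Nup98HoxD13 (2.08 ± 0.51, adjusted p = 0.0192, limma). Every TLX1 value was above all 6 others, tumours 2 and 4 most of all, though tumour 3 only just (128 against 127). The Lyl1 call was lost without LMO1 tumour 1 and in tumours 1 and 4 alone. It was also lost with either control ratio as a covariate (1.30 with Gapdh, adjusted p = 0.403, limma). Cbfa2t3, described above as joining the LMO complexes, was higher too and is not in this list. Id1, an inhibitor of E proteins, had 48.6 to 294 in TLX1 tumours and 173 to 762 in the others (-1.34 ± 0.42, adjusted p = 0.0477, limma), a call lost in 10 of the 12 fits that left out 1 tumour. Lmo2 had 52.2 to 398 in TLX1 tumours and 53.6 to 191 in the others and was not called (0.16 ± 0.40, adjusted p = 0.818, limma). Of 5 tested homeobox genes and cofactors, Dlx1 was higher and Tgif1 lower, beside 9.27% and 6.39% of all tested genes. Hoxc4, at 2.61 to 22.97 in TLX1 tumours and 2.34 to 8.15 in the others, was too dim to test.

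The Notch pathway, which drives T-cell fate and many T-cell leukaemias, had 1 of 20 tested members higher and 2 lower, shares close to the 9.27% and 6.39% of all tested genes. Notch1 had 441, 626, 4259.6, 3240.2, 2413 and 246 in TLX1 tumours, against 3201, 2625 and 1736 in LMO1 tumours and 1849, 939 and 1455 in tumours labelled Nup98HoxD13. The TLX1 tumours had low values in tumours 1, 2 and 6 and high values in tumours 3, 4 and 5, and the difference was not called (-0.65 ± 0.62, adjusted p = 0.494, limma). Trib2, a pseudokinase and Notch target, was likewise lowest in tumours 1, 2 and 6, with 25.1, 31.5, 1042, 637, 344 and 112 in TLX1 tumours and 358 to 2087 in the others (-2.28 ± 0.72, adjusted p = 0.048, limma), and its call was lost in 10 of the 12 fits that left out 1 tumour. Psen2, a catalytic subunit of gamma-secretase, was the higher member (123 to 280.1 in TLX1 tumours and 51.2 to 97.99 in the others, 1.36 ± 0.24). The Psen2 call was lost in tumours 1 and 4 alone and with either control ratio as a covariate. Myc, a Notch target and growth regulator, had 647, 213, 929.8, 452, 185 and 364 in TLX1 tumours, against 1266, 1343 and 1262 in LMO1 tumours and 639, 1404 and 1538 in tumours labelled Nup98HoxD13 (-1.55 ± 0.36, adjusted p = 0.0147, limma). Only TLX1 tumours 1 and 3 overlapped the others, and it did not hold in tumours 1 and 4 (-1.12). Of 31 tested MYC targets, 4 were lower (12.9%, beside 6.39% of all tested genes), Myc counted among them, and 0 higher, at a median of -0.02.

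T-cell receptor and identity genes mostly did not pass the test: Cd2 alone was lower among 10 tested identity genes, and 2 of 20 tested receptor signalling genes were lower. Lcp2, the SLP-76 adaptor, was one of these, with 487 to 637 in TLX1 tumours and 683 to 996 in the others (-0.54 ± 0.14, adjusted p = 0.0202, limma). The Lcp2 call was lost in tumours 1 and 4 alone. Cell cycle entry genes and inhibitors had 4 of 19 tested members higher (21.1%, beside 9.27% of all tested genes) and 0 lower at a median of -0.06. Plagl1 was one of the 4. Cdkn1c, which encodes the inhibitor p57, had 110.3 to 270.0 in TLX1 tumours and 2.02 to 152 in the others (1.84 ± 0.41). Ccnd2, cyclin D2, had 122 to 1156 in TLX1 tumours and 39.03 to 164 in the others (1.94 ± 0.46). Ccne1, cyclin E1, had 151 to 293 in TLX1 tumours and 56.6 to 148 in the others (0.94 ± 0.23). Of these 4 only Plagl1 held in tumours 1 and 4, and none was called with either control ratio as a covariate. Spindle checkpoint and chromosome segregation genes had 3 of 32 lower (9.38%) and 0 higher, among them the cohesin genes Stag1 (-1.19 ± 0.19) and Rad21 (-0.78 ± 0.16). DNA damage genes had 2 of 25 lower (8.00%), Rad1, a subunit of the checkpoint clamp, among them (-1.13 ± 0.23). Replication genes had 3 of 35 lower (8.57%), Cdc6, which loads the replicative helicase, among them (-1.07 ± 0.27). These 3 shares are near the 6.39% of all tested genes, and no called gene of these 3 lists held in tumours 1 and 4. Chek1, the checkpoint kinase, was not called on the probe set used (-0.21 ± 0.23, adjusted p = 0.563, limma), while a dimmer one with 71.9 to 220.3 in TLX1 tumours and 170.8 to 380.1 in the others was called lower. Apoptosis regulators had 1 of 22 higher, Bak1 (0.63 ± 0.15), and 2 lower, Casp8 (-1.06 ± 0.24) and Gsdme. These are 4.55% and 9.09%, beside 9.27% and 6.39% of all tested genes. Bak1 and Casp8 did not hold in tumours 1 and 4, and neither was called with either control ratio as a covariate. Gsdme, a pore-forming gasdermin, had 207, 76.4, 47.4, 32.8, 34.7 and 52.8 in TLX1 tumours, against 301, 215 and 368 in LMO1 tumours and 352, 524 and 959 in tumours labelled Nup98HoxD13 (-2.43 ± 0.36, adjusted p = 0.00233, limma), with no overlap. Tumour 1 was the highest TLX1 tumour, and the call was lost in tumours 1 and 4 (-2.01, adjusted p = 0.105, limma). A second, dimmer Gsdme probe set overlapped between the sides, with 13.2 to 104 in TLX1 tumours and 25.8 to 52.5 in the others.

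**Figure D5:**
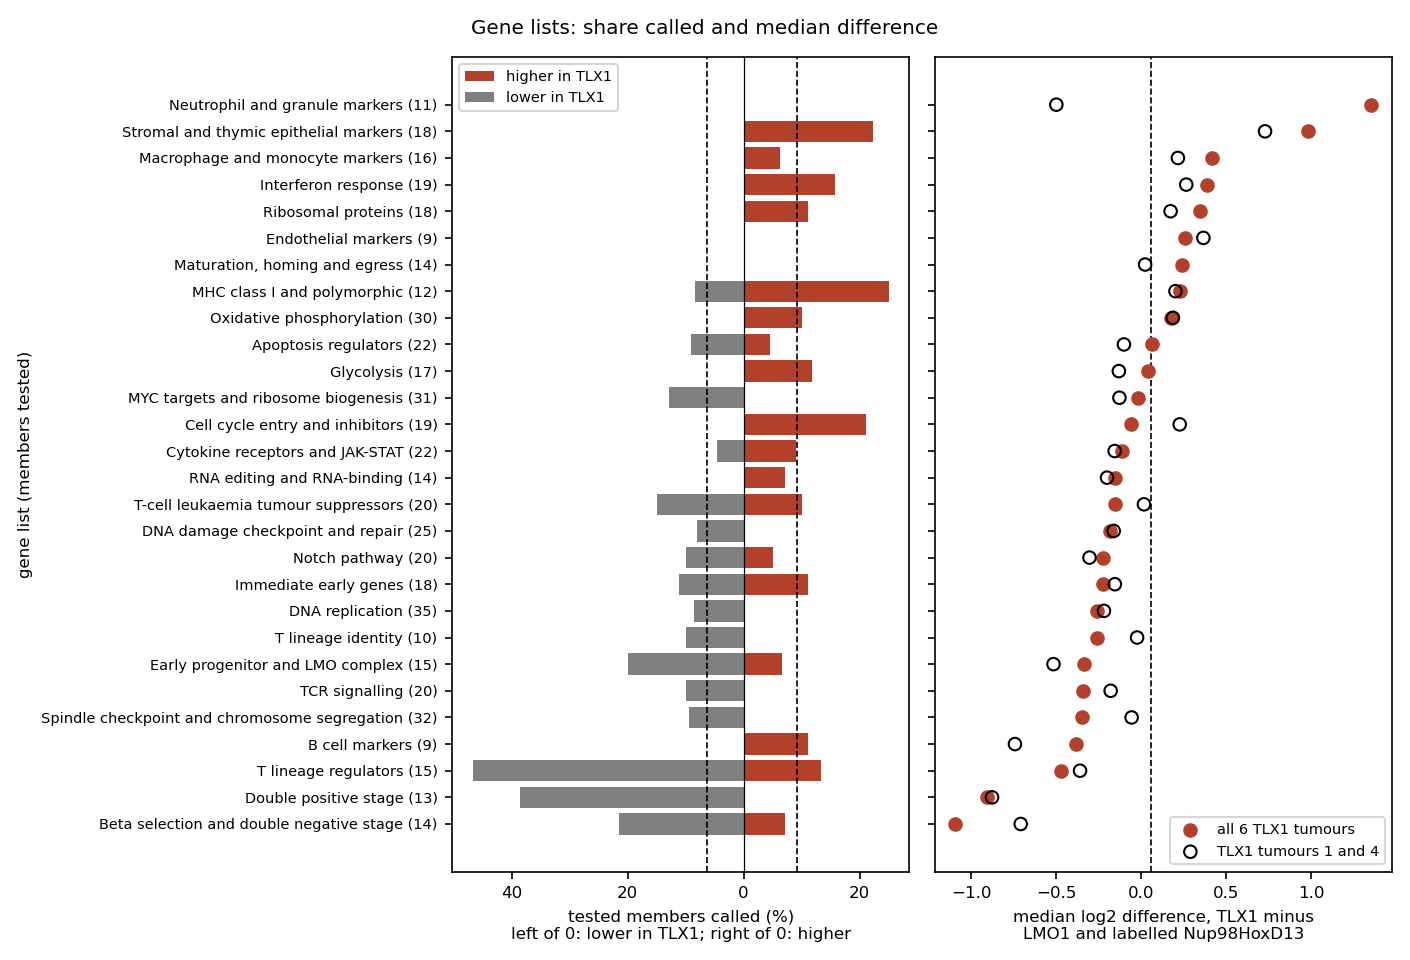
Gene lists with at least 9 tested members are ordered by their median log2 difference, highest at the top. Left, the percent of tested members called higher (red) and lower (grey) in TLX1 tumours, with dashed lines at 9.27% and 6.39% for all tested genes; right, the median log2 difference with all 6 TLX1 tumours (filled) and with tumours 1 and 4 (open), with a dashed line at 0.06. T lineage regulators and double positive stage genes have the largest shares of lower members, and the neutrophil median is above 0 with all 6 tumours and below 0 with tumours 1 and 4.

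The comparison groups differed for some genes, and both comparisons share the 6 TLX1 arrays. Against LMO1 tumours alone 237 genes were called (3.15%; 2.07% higher and 1.08% lower in TLX1), and against tumours labelled Nup98HoxD13 alone 841 (11.2%; 6.92% higher and 4.25% lower in TLX1); whether these counts differ was not tested. The first was 119 without TLX1 tumour 2 and 14, 105 and 17 without LMO1 tumours 1, 2 and 3. The second was 510 without TLX1 tumour 2 and 346, 326 and 257 without tumours 1, 2 and 3 labelled Nup98HoxD13. Erdr1, a gene of the pseudoautosomal region, had 3310.4, 3432, 8437, 3701, 4654 and 3884 in TLX1 tumours and 3697, 1890.5 and 1903 in LMO1 tumours, against 49.3, 91.99 and 470.1 in tumours labelled Nup98HoxD13. It was called against the second group (4.84 ± 0.51, adjusted p = 0.000488, limma) and not against LMO1 tumours (0.86 ± 0.51, adjusted p = 0.35, limma). The MHC class I and polymorphic list had 3 of 12 tested members higher and 1 lower, beside 9.27% and 6.39% of all tested genes. In that list Tap1, a peptide transporter, was higher (0.87 ± 0.22), and H2-T3, a class I-like molecule, was lower (-1.81 ± 0.40). Erdr1 is in that list too.

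Markers of other cell types were uneven across the tumours. Neutrophil and granule markers, 11 tested of 16, had 0 called, yet their mean log2 value, relative to the 6 comparison tumours, was 6.33 in TLX1 tumour 2 and 3.03 in tumour 5, against -0.32 to 0.06 in the other 4 TLX1 tumours and -1.10 to 1.83 in the comparison tumours. Their summed signal ran from 598 to 76116 in TLX1 tumours and from 233 to 4762 in the others. Tumour 2 also had the lowest mean of T identity genes, -1.52 against -0.65 to 0.13 in the other TLX1 tumours and -0.31 to 0.46 in the comparison tumours. Stromal and thymic epithelial markers had 4 of 18 tested members higher (22.2%, beside 9.27% of all tested genes) and 0 lower. Their median was 0.98 in all 6 TLX1 tumours and 0.73 in tumours 1 and 4. Their summed signal was 6629 to 14768 in TLX1 tumours and 4141 to 5994 in the others. The 4 higher markers were Gsn, the actin-severing gelsolin (1.35 ± 0.22), the keratins Krt18 (2.33 ± 0.47) and Krt5 (0.96 ± 0.20), and Epcam (1.52 ± 0.44), and none held in tumours 1 and 4. The mean log2 value of macrophage and monocyte markers was 0.56, 0.77, 1.27, 0.49, 0.49 and -0.47 in TLX1 tumours 1 to 6, against -0.17 to 0.14 in the comparison tumours, and their summed signal was 8420 to 23652 in TLX1 tumours and 8627 to 11354 in the others. Of these markers 1 of 16 was higher (6.25%), Retnla, with 150.2 to 2577 in TLX1 tumours and 5.89 to 303 in the others (2.85 ± 0.68). B cell markers had 1 of 9 higher, the immunoglobulin gene Igha (2.44 ± 0.55), and NK and cytotoxic markers 1 of 5, Tbx21 (1.64 ± 0.47). Both counts stand beside 9.27% of all tested genes. Dendritic, endothelial and erythroid markers had 0 of 8, 0 of 9 and 0 of 1 called. The calls of Epcam and Tbx21 were lost in 7 and 6 of the 12 fits that left out 1 tumour. No marker signal was exactly 0, and the part of these cells in the differences was not tested. In tumours 1 and 4, which entered the calls of the 49 genes that hold, the mean was 0.34 and 0.97 for stromal markers and 0.56 and 0.49 for macrophage markers.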

How the data were processed

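Tumour RNA was labelled as cRNA and hybridised to Affymetrix arrays, as the labels' protocols describe. What the authors deposited is 1 linear signal intensity for each probe set on each array, which the submitters' processing notes credit to MAS5; its version is not given in the sources used here. The 12 arrays share a trimmed mean (2% cut at each end) of 250.064 to 250.096, so they had been scaled before deposit, and no pair of arrays was identical. Of 22690 probe sets, 64 are controls, and those with 1 symbol in the platform table (20380; 691 have several and 1555 none) were used. The 25th percentile of all signals, 15.9, was added before log2. A probe set needed a signal above the array median in 3 of the 12 arrays, and the one of highest mean stood for its gene, which left 7528 of 12393 genes. Groups came from the titles. limma 3.58.1 (R 4.3.3; lmFit, eBayes with trend, Benjamini-Hochberg over 7528 genes) gave 1 mean per background, and TLX1 was set against the unweighted mean of the other 2, or each of them. TLX1 tumours 1 and 4 were chosen by their control ratios. Control ratios were compared by exact permutation. Named genes were 14 always named, up to 15 of the largest differences per direction that hold, up to 8 per direction that do not, and up to 4 called genes per list; members of the lists and of the 49 genes beyond these were named after their values were seen. The 33 lists, the members and the rules were chosen with earlier results of these data known. The number of arrays limits the precision. Alternatives are given in the closing section. The p53 gene is not reported here.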

Additional observations from a re-analysis of the deposited data

Results flagged for a closer look

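Among 113 named genes and 2 control ratios, 9 genes had 1 TLX1 tumour far from the other 5 on the log2 scale, by Dixon's ratio of the gap to the whole range with its 95% limit for 6 tumours; chance flags about 1 in 20 groups. The groups of 3 were too small to examine. Tumour 3 stood apart in 5 genes: Bex1 was lowest there (ratio 0.697), and Casp8 (0.658), Erdr1 (0.636), Rag2 (0.646) and Tspyl1 (0.647) were highest there. Tumour 2 was lowest for Cd8b1 (0.847). Tumour 6 was highest for Krt18 (0.661) and lowest for Neat1 (0.635), and tumour 4 was lowest for Rad1 (0.64).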

How the results depend on the processing

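Of 105 called genes named here, all kept their sign under the settings tried, 29 or 30 for each gene, and 18 stayed called throughout: Lmo1, F2, Sephs2, Adarb1, Adgrl1, Ankrd17, Cbfa2t3, Dlx1, Emid1, Fmo2, Max, Myl6, Parp3, Pip5k1a, Spen, Tceal9, Tmppe and Tsc22d1. Lmo1 among them was fixed by the choice of groups. Both control ratios kept their side under every setting, over 1.27 to 1.79 (Gapdh) and 1.14 to 1.59 (Actb) when 1 tumour was left out. The count of 1179 became 1913 with no filter, 2060 with the probe set of largest interquartile range, 2767 of 11769 with every probe set, and 1841 with background as a random block (consensus correlation -0.054). It became 304 with TLX1 tumours 1, 3 and 4, 63 with tumours 1 and 4, 30 with the Gapdh and 34 with the Actb covariate, and 619 to 1261 without 1 tumour. The higher share was 59.2%, 43.8% with the largest interquartile range, 43.5% with every probe set and 72.6% with no filter. Against LMO1 tumours, 237 became 368 (no filter), 597 and 635 (those probe set choices), 1130 (array weights), 633 (all 47 arrays), 24 and 27 (covariates), 34 and 42 (tumours 1 and 4; 1, 3 and 4), and 14 to 312 without 1 tumour. Against tumours labelled Nup98HoxD13, 841 became 1794 and 2318 (those probe set choices), 1364 (all 47 arrays), 25 and 22 (covariates), 44 and 219 (tumours 1 and 4; 1, 3 and 4), and 257 to 1039 without 1 tumour. With tumours 1 and 4 alone, 63 became 41 (constant of 1), 100 (median constant), 535 (no filter), 212 and 277 (probe set choices), 97 (no trend), 19 (array weights), 289 (all 47 arrays), and 14 to 67 without 1 tumour. Of 109 genes the naming rule called, 13 and 14 stayed called with the covariates, 30 with tumours 1 and 4, 36 with 1, 3 and 4, and 67 to 99 without 1 tumour, and 28 of 33 lists with a called gene became 8 with tumours 1 and 4. The cause was not tested in any of these, though fewer TLX1 tumours raise the error.

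Title numbers as a replicate block gave 347 calls against 1179 (26 against LMO1, 209 against labelled Nup98HoxD13, 11 with tumours 1 and 4, 52 of the 109). Deviations of same-numbered tumours from their group means correlated at -0.08 to 0.21. Differently numbered pairs were not examined, so these values cannot decide whether the numbers pair the tumours. Uncalled genes changed sign near 0: Chek1 was 0.0528 with the block, Notch1 0.0317 with the Gapdh covariate and 0.00853 with tumours 1, 3 and 4, and Cd4 0.0787 with tumours 1 and 4 and -0.32 to 0.00585 without 1 tumour. Lmo2 was -0.75 and -0.68 with the covariates, -0.29 with tumours 1 and 4, -0.21 with 1, 3 and 4, and -0.19 (without TLX1 tumour 2) to 0.37 without 1 tumour. Not every setting left Cd4 near 0, since 1 of 30 called it lower, with differences reaching -1.70. Signals under the array medians limit how well the size of a difference is known.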

Other observations

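Of all tested genes 9.27% were higher and 6.39% lower in TLX1 tumours, and 7528 genes were tested. Immediate early genes had 2 of 18 tested members higher, Egr3 (1.40 ± 0.23) and Jund (0.76 ± 0.23), and 2 lower, Junb (-0.89 ± 0.25) and Myc. Egr3, a zinc finger factor induced by T-cell receptor signals, was higher in every TLX1 tumour than in every comparison tumour (adjusted p = 0.00329, limma). Cytokine receptor and JAK-STAT genes had 2 of 22 higher, Il4ra, the interleukin 4 receptor alpha chain (1.07 ± 0.25), among them, and 1 lower, Stat5b (-0.56 ± 0.17). Interferon response genes had 3 of 19 higher (15.8%) and 0 lower: Tap1, Irf7 (0.59 ± 0.16) and Ifi35 (0.52 ± 0.15). Retinoic acid genes had 2 of 7 higher (28.6%) and 0 lower, Dhrs3, a retinal reductase (1.01 ± 0.29), and Rxrb, a retinoid X receptor (0.67 ± 0.19). The calls of Irf7, Ifi35, Dhrs3, Rxrb, Jund and Stat5b were each lost in 7 to 9 of the 12 fits that left out 1 tumour.

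Ribosomal protein genes had 2 of 18 higher, oxidative phosphorylation genes 3 of 30 and glycolysis genes 2 of 17, Slc16a3, a lactate transporter (0.93 ± 0.24), among them, with 0 lower in each. Leukaemia tumour suppressors had 2 of 20 higher and 3 lower, and these 5 (Bcl11b, Gata3, Ikzf1, Runx1 and Lef1) are all T lineage regulators as well. Maturation, homing and egress genes had 0 of 14 called. None of the called genes of these lists held in TLX1 tumours 1 and 4.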
